A study of Mus musculus with 13 samples.

Results

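KLF1 binding sites called in wildtype fetal liver, with no overlapping site called in MommeD45 fetal liver and no gene of altered expression close by, made up 605 of the 1203 wildtype peaks (50.3%, exact 95% interval 47.4 to 53.2). A peak was taken when it shared no base with any MommeD45 peak and lay more than 10 kb from the locus of each of the 2036 genes in the authors' expression table, both in mm9 positions. Where the caller had split a peak, its highest summit by fold enrichment stood for it. They are called far wildtype-only peaks below; retained peaks share a base with a MommeD45 peak, near peaks lie within 10 kb of a listed gene, and the other wildtype peaks are 237 near wildtype-only, 250 far retained and 111 near retained peaks. These peaks were thus chosen by 2 measured quantities, overlap with MommeD45 peaks and distance to listed genes, and both are described here without a test.

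The peaks came from mouse livers at 14.5 days post coitum. Chromatin of MommeD45 livers and of wildtype livers was precipitated with a KLF1 antibody, with 1 library per genotype, each made from 2 pooled replicates, and 1 input library per genotype. MommeD45 is an altered Klf1 allele, which the series title places in a linker between zinc fingers. The sources used here do not give how many copies of it the livers used for chromatin carried. The expression table compares D45/- livers (MommeD45 over a null allele), -/- livers (no intact allele) and +/- livers (1 intact allele over a null one), so all 3 genotypes carry at least 1 null allele, as the minus sign is read here. It gives 1 abundance per genotype, taken to be FPKM (fragments scaled to transcript length and library depth), with 3 mRNA replicates behind each. No wildtype mRNA enters it.

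KLF1, a transcription factor that red cell precursors depend on, has zinc fingers that bind CACCC-type sequences at promoters and at distal enhancers. It is known for activating adult beta-globin and many other genes of red cell maturation, often beside GATA1 and TAL1. At mid-gestation the liver is the main site of red cell production. Distal KLF1 sites can lie far from the genes they serve, so distance alone does not say which gene, if any, a site acts on. Red cell genes such as Alas2 were abundant in these livers, with values given below. Of 7 hepatocyte markers looked up, Cps1 alone was in the authors' deposited table, at 7.85 FPKM in D45/-, 4.18 in -/- and 3.87 in +/- livers; levels of unlisted genes were not analysed here.

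The 2 libraries gave 485 peaks in MommeD45 and 1203 in wildtype livers, and 842 of the wildtype peaks (70.0%) shared no base with a MommeD45 peak. The lowest called pileup, the number of fragments stacked at a summit, was 17 in MommeD45 and 16 in wildtype. The local background that a pileup and its fold enrichment imply had a floor of 4.66 fragments in MommeD45 and 4.51 in wildtype. Total reads per library are unknown. The absence of a MommeD45 peak says that no peak passed the authors' threshold there, not that no KLF1 was bound. With 1 library per genotype there is no replicate check and no test between genotypes, and the peaks of a library are not replicates of each other.

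Far wildtype-only peaks were mostly weak. Their fold enrichment over the local background, as the authors' peak caller gave it, had a median of 4.61 (95% interval 4.54 to 4.72 for the peaks of this library) and ran between 1.98 and 24.98. The near wildtype-only peaks had a median of 4.54 (4.36 to 4.88). The medians were higher in the far retained peaks, at 6.36 (5.90 to 6.54), and in the near retained peaks, at 6.06 (5.61 to 7.21). The order of the medians thus went by retention, and the far and near peaks of each kind had overlapping intervals. Pileup gave the same picture, with a median of 27 fragments in the far wildtype-only peaks, 29 in the near wildtype-only, 41 in the far retained and 43 in the near retained peaks. Peak length had medians of 246, 242, 318 and 320 bases in the same 4 classes. Strength was read from the wildtype list, and retention from the overlap of that list with the MommeD45 list. How far the weakness of a peak decides whether it has a MommeD45 counterpart was not tested.

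**Figure D1:**
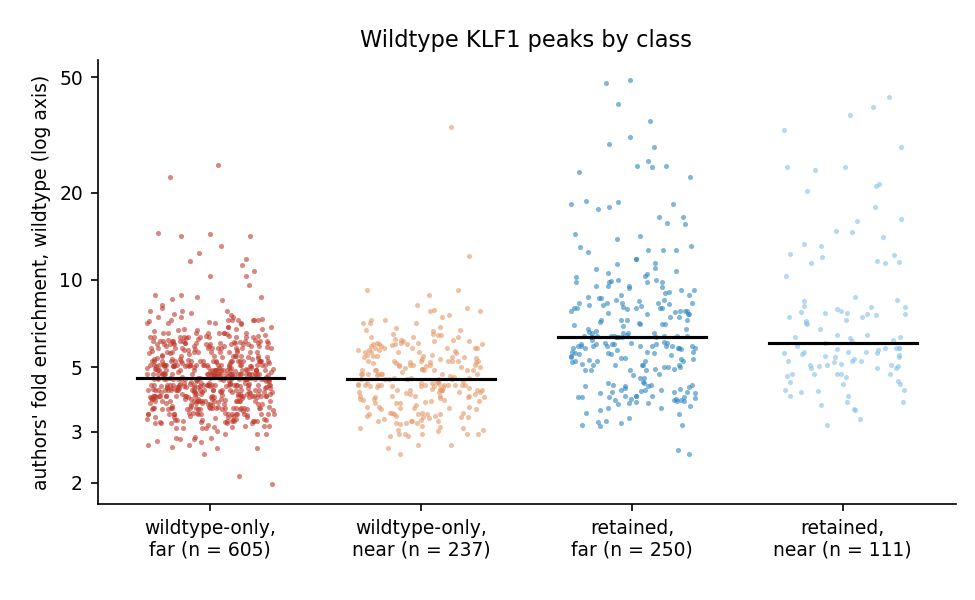
Fold enrichment of each wildtype KLF1 peak (log axis, the authors' values, 1 library) in the 4 classes, with a black line at each median. The far wildtype-only peaks centre on 4.61, beside 4.54 for near wildtype-only and 6.36 and 6.06 for far and near retained peaks, and 2 of the 605 stand above 20.

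The share of far wildtype-only peaks was lower among stronger wildtype peaks. They made up 176 of the 292 peaks under a fold enrichment of 4 (60.3%, exact 95% interval 54.4 to 65.9) and 325 of the 578 between 4 and 6 (56.2%, 52.1 to 60.3). Between 6 and 8 they were 82 of 194 (42.3%, 35.2 to 49.6). Above that they were few, with 8 of 52 peaks between 8 and 10 (15.4%, 6.88 to 28.1), 12 of 60 between 10 and 20 (20%, 10.8 to 32.3) and 2 of 27 at 20 or more (7.41%, 0.91 to 24.3). The last 3 shares rest on small counts and their intervals overlap, so no order is read among them. Of the 301 strongest wildtype peaks 85 (28.2%) were far wildtype-only, and of the 301 weakest 185 (61.5%). By the authors' q-value, 41 of the 605 (6.78%) lay under 3 on the −log10 scale, against 5 of the 361 retained peaks (1.39%).

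**Figure D2:**
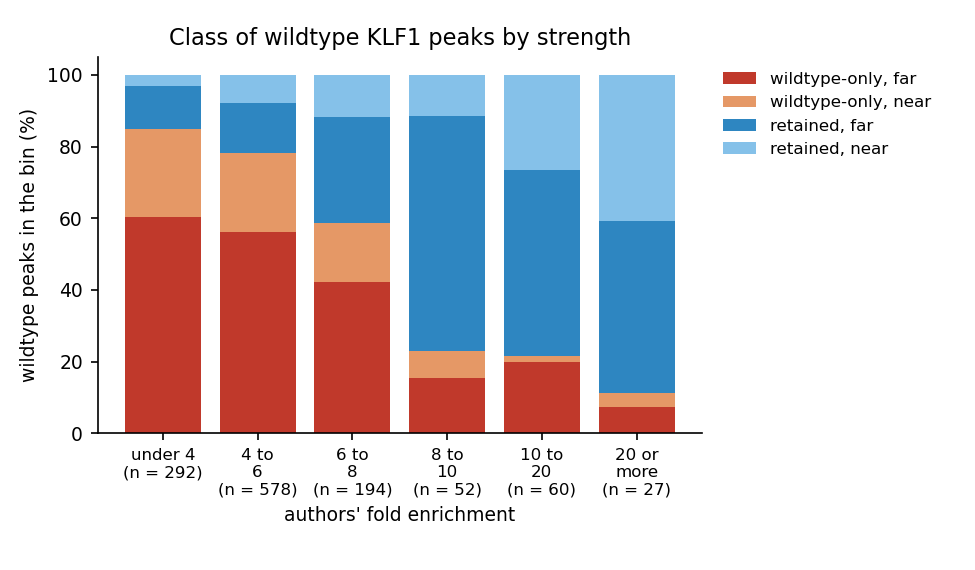
Share of each class (percent of wildtype peaks in a bin, n under each bar) by bins of the authors' fold enrichment in the wildtype library. Far wildtype-only peaks take 60.3% of the weakest bin and 7.41% of the 27 peaks at 20 or more.

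Few far wildtype-only peaks were strong, with 14 at a fold enrichment of 10 or more. The strongest, chr14:55681461-55681904, had a pileup of 168 fragments and a fold enrichment of 24.98, and the nearest MommeD45 peak was 477 kb away. It lay between Haus4 and Dhrs4 with no other wildtype peak in that 924 kb, and its nearest listed gene was Dhrs4, a short-chain dehydrogenase gene, at 416 kb. The next, chr3:58258292-58258714, had a pileup of 124 and a fold enrichment of 22.7, and lay 619 kb from Rnf13, a ubiquitin ligase gene. In the interval between Rnf13 and P2ry1 the wildtype list also held 2 weak far wildtype-only peaks (4.72 and 5.25) and 1 retained peak (9.44). The next peak in the ranking had a fold enrichment of 14.5, and below it the values fell off with no such gap.

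The rest of the 10 strongest lay between fold enrichments of 11.6 and 14.5. The peak chr11:61433828-61434185 had a fold enrichment of 14.5 and a pileup of 79, and lay between Mfap4 and Fam83g, 52.1 kb from Fam83g. RefSeq (assembly GRCm38.p6, used for the order of genes only) has 4 coding genes in that interval, among them Mapk7, a MAP kinase gene. The peak chr4:132806513-132806954 had a fold enrichment of 14.2, and its pileup of 146 fragments came next to the 168 of the strongest peak. It stood over an implied local background of 9.34 fragments, above the floor of 4.51. Its nearest listed gene was Fgr, a kinase gene of myeloid cells, at 249 kb. The peak chr16:30565722-30566073, between the platelet glycoprotein gene Gp5 and Fam43a, had a fold enrichment of 12.4. Slc16a1, a lactate transporter gene, was 103 kb from chr3:104565202-104565610 (fold enrichment 11.8). The weakest of the 10, chr12:41693325-41693670 (11.6), was 6092 kb from Hdac9, its nearest listed gene. No MommeD45 peak was called within 50 kb of 8 of the 10; the exceptions, on chromosomes 13 and 17, are described below.

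The peak chr12:77866267-77866619 lay between 2 listed genes, 54.7 kb from Sptb, which encodes beta-spectrin of the red cell membrane skeleton, and 71.8 kb from Fntb. Its fold enrichment was 13.1 with a pileup of 71, and RefSeq places Churc1, Gpx2 and Rab15 between the flanking genes. The authors' deposited table has Sptb at 260 FPKM in D45/-, 135 in -/- and 313 in +/- livers. The authors called it lower in -/- livers, at a log2 ratio of -1.22 against +/- and a q of 0.00403, and that table has no call for D45/- against +/-. In bulk liver, fewer cells of a type and less RNA per cell cannot be told apart, here or for any gene below.

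Most far wildtype-only peaks lay far from any called MommeD45 peak, as the rule and a list of 485 MommeD45 peaks over the genome make likely. No baseline was computed for the distances that follow. The median distance to the nearest MommeD45 peak was 665 kb over the 603 peaks on nuclear chromosomes, and 30 of the 605 (4.96%) lay within 10 kb of one. Within 1 kb lay 11 of the 605 (1.82%), at fold enrichments with a median of 4.36. For 9 of these 11 the adjoining MommeD45 peak overlapped another, retained wildtype peak, so these stood beside a retained site. The summits were 327 to 1363 bases apart. The closest were chr11:48613692-48613929, 74 bases from a MommeD45 peak, chr11:58115878-58116137 at 92 bases and chr12:113052115-113052416 at 110 bases. On the other side of the rule, the far retained peak with the smallest overlap shared 9 bases with a MommeD45 peak and the next shared 76, both on chromosome 13.

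One of the 11 was strong. The peak chr17:34256635-34256991, in the major histocompatibility region between H2-K1 and H2-Aa, had a fold enrichment of 14.4 and a pileup of 111 in wildtype. A MommeD45 peak with a fold enrichment of 4.24 ended 181 bases before it, and that MommeD45 peak overlapped a weaker wildtype peak with a fold enrichment of 3.99. By the overlap rule the weaker of these 2 adjoining wildtype sites therefore counted as retained. The MommeD45 summit, at 34256417, lay past the end of the weaker peak (34256394) and before the start of the strong one (34256635). Which of the 2 sites the MommeD45 peak matches is thus not settled. H2-K1, a class I antigen gene 119 kb from the strong peak, had 6.25 FPKM in D45/-, 26.3 in -/- and 9.52 in +/- livers by the authors' deposited table.

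Chromosome 13 held a dense group. Of its 67 wildtype peaks 44 (65.7%, exact 95% interval 53.1 to 76.8) were far wildtype-only, against 50.3% over all chromosomes. The share was also high on X (8 of 12, 66.7%) and on chromosome 18 (19 of 31, 61.3%). Neighbouring peaks are not independent, which these intervals do not allow for. Of the 44, 28 lay in 2 adjoining intervals, Zscan26 to Btn1a1 (12 peaks) and Btn1a1 to Fam65b (16 peaks), which hold 22 and 31 histone genes in RefSeq among 76 and 41 coding genes. Histone genes of this kind encode the core and linker proteins of newly made chromatin and occur in many near-identical copies. Outside these intervals 16 of the 30 wildtype peaks of the chromosome were far wildtype-only (53.3%, 34.3 to 71.7), and inside them 28 of 37 (75.7%, 58.8 to 88.2). The 95% intervals of the 2 shares overlap, and no test was made. Both gene intervals run between listed genes and were picked because far wildtype-only peaks lay in them. Nearly all peaks inside are therefore far by construction, and the 2 shares do not compare like with like. Retained peaks were 8 of the 37 inside and 16 of the 67 on the whole chromosome. Whether each peak falls on a histone gene was not analysed, because the gene positions used here are of another genome build. The sources used here do not say how reads that map to several copies were treated.

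Within the histone intervals 27 of the 28 peaks had a fold enrichment under 6. The median of the 28 was 4.01 and the median implied background was 4.51, the floor of the library. They came in tight runs when peaks up to 50 kb apart were joined. One run had 8 peaks in 76.7 kb (chr13:21802395-21879141) and another had 10 peaks in 85.1 kb (chr13:23592718-23677861). The last had 5 peaks in 15.2 kb (chr13:23838677-23853907) and ended with the sole strong one, chr13:23853181-23853907, at a fold enrichment of 14.2 and a pileup of 88. Retained peaks were interleaved with them, with 4 inside the run of 10. In all, the 2 intervals held 7 MommeD45 peaks, and in wildtype 28 far wildtype-only, 1 near wildtype-only and 8 retained peaks. Among listed genes, 3 variant histone genes outside these intervals appear, H3f3a, H2afj and H2afx, and none of chromosome 13. Absence from the list does not show unchanged expression, since levels of unlisted genes were not analysed here.

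**Figure D3:**
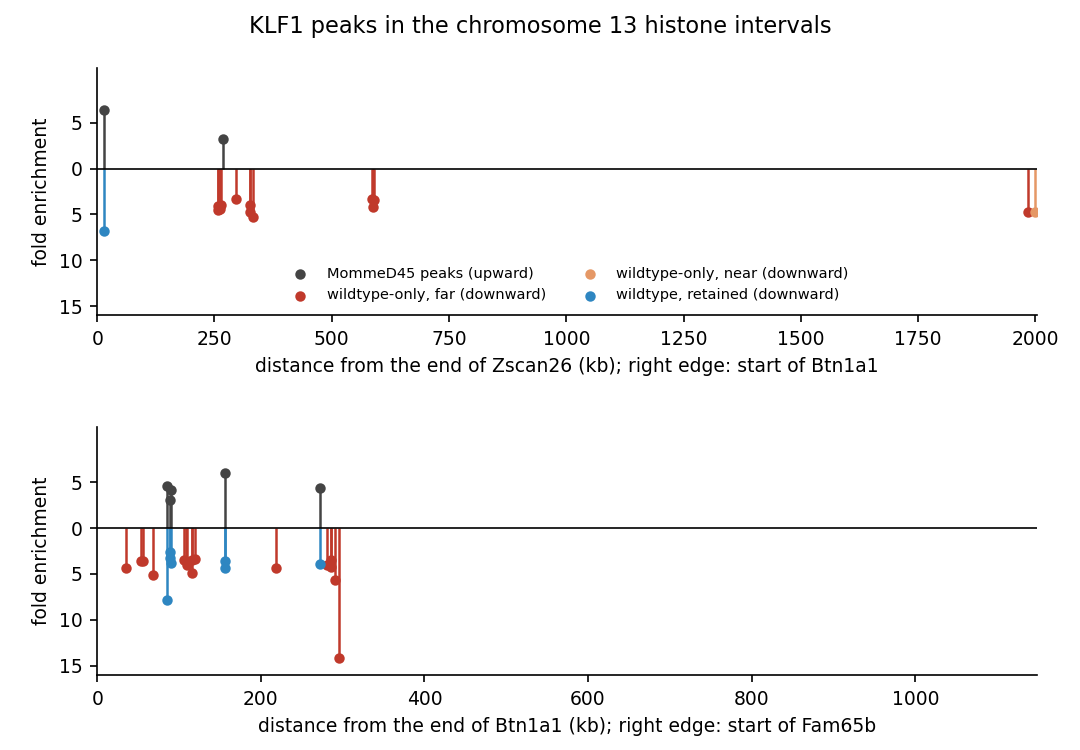
Peaks in the intervals Zscan26 to Btn1a1 (upper panel) and Btn1a1 to Fam65b (lower panel), by distance from the end of the first gene (kb) and the authors' fold enrichment, with MommeD45 peaks drawn upward and wildtype peaks downward; the values of the 2 libraries were called separately. Wildtype-only peaks sit in short runs near 4-fold, and 1 reaches 14.2.

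Elsewhere the far wildtype-only peaks were mostly single. Joining peaks within 50 kb left 497 alone, 28 pairs and 12 runs of 3 or more. Apart from the histone runs, the longer ones were 4 peaks in 31.5 kb on chromosome 11 (chr11:101488341-101519865, fold enrichments between 5.05 and 7.81) and 4 in 22.4 kb near Per1 and Pfas (chr11:68850923-68873319). Another 3 lay in 15.7 kb between Slc2a4, the insulin-responsive glucose transporter gene, and Dlg4. No retained or MommeD45 peak was called in these 3 stretches. Of the 605 peaks, 86 (14.2%) had another wildtype peak within 10 kb and 24 (3.97%) a retained one.

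The alpha-globin locus showed the 2 kinds of site side by side. The interval between Rhbdf1 and the embryonic alpha-like globin gene Hba-x, 54.3 kb long, holds the genes Mpg and Nprl3, and introns of Nprl3 are known to carry the distal enhancers of alpha-globin. It had 3 wildtype peaks. The outer ones, chr11:32145689-32145935 (fold enrichment 4.96, pileup 27) and chr11:32156175-32156378 (3.32, pileup 22), were far wildtype-only, at 30.7 and 20.2 kb from Hba-x. The middle one, with a fold enrichment of 4.18 and a pileup of 30, was retained, and its MommeD45 counterpart had a fold enrichment of 3.88 and a pileup of 25 in its own list. All these values are low, and the retained peak lies between the outer ones in fold enrichment. In the authors' deposited table Hba-x had 687 FPKM in D45/-, 274 in -/- and 1249 in +/- livers. The adult gene Hba-a2, 40.1 kb from the nearest far wildtype-only peak, had 935 FPKM in D45/- and 295 in -/- livers by the authors' deposited table. Per the labels, the RNA had been treated with a globin depletion kit, so these globin values are no guide to the untreated level.

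A like layout stood between Dhrs13 and Traf4 on chromosome 11, where RefSeq places Flot2, Eral1 and Fam222b. The far wildtype-only peaks chr11:77879452-77879726 (fold enrichment 6.68, pileup 42) and chr11:77886852-77888066 (7.45, pileup 40) lay on either side of a retained peak (4.10, pileup 24). The second of them, with 2 summits over 1215 bases, was the longest of the 605. Here, unlike between Rhbdf1 and Hba-x, the retained peak was the weakest of the 3 in wildtype.

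Far wildtype-only peaks lay at a median of 189 kb from the nearest listed gene (603 peaks on nuclear chromosomes, with the middle 50% between 64.6 and 458 kb), against 164 kb for the 250 far retained peaks. A listed gene within 50 kb was found for 114 of the 605 (18.8%, exact 95% interval 15.8 to 22.2), against 58 of 250 far retained peaks (23.2%, 18.1 to 28.9). Within 100 kb the counts were 208 (34.4%, 30.6 to 38.3) against 99 (39.6%, 33.5 to 46.0). The intervals overlap at both distances. The share of peaks far from listed genes in wildtype-only and in retained peaks had overlapping intervals, with 605 of 842 (71.9%, 68.7 to 74.9) against 250 of 361 (69.3%, 64.2 to 74.0). The farthest, chr2:50152111-50152355, was 7829 kb from Cytip.

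**Figure D4:**
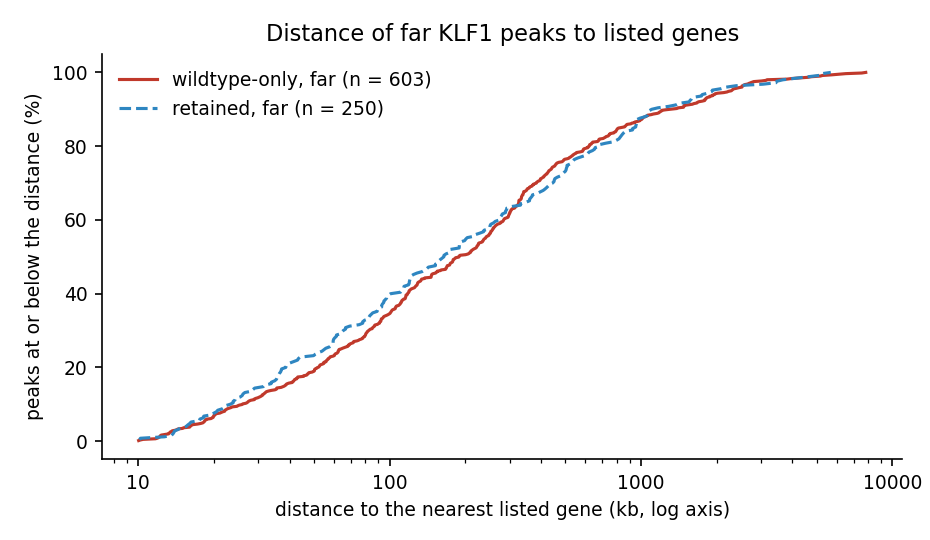
Cumulative share of far peaks (percent) by distance to the nearest listed gene (kb, log axis) for 603 far wildtype-only and 250 far retained peaks. The curves lie close together, with medians of 189 and 164 kb.

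The 3 peaks just past 10 kb were chr3:68858702-68859250 at 10.038 kb from Trim59 (fold enrichment 7.63, with 2 summits), chr7:52722182-52722386 at 10.195 kb from the glycogen synthase gene Gys1 (4.29) and chr9:42924257-42924501 at 10.456 kb from Arhgef12 (4.36). Just within it were peaks at 9.7 kb from Rnf145 (5.63), 9.504 kb from Adam10 (4.36) and 9.439 kb from Hmox1 (3.05). In the authors' deposited table Trim59 had 53.0 FPKM in D45/-, 24.5 in -/- and 88.7 in +/- livers. Gys1 was highest in -/- livers there, with 8.04 FPKM in D45/-, 23.9 in -/- and 8.10 in +/- livers.

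The 603 nuclear peaks had 449 different nearest listed genes. Of these, 209 (46.5%, exact 95% interval 41.9 to 51.3) were called lower in -/- than in +/- livers, against 43.2% of all 2036 listed genes, so the share was near the background. A further 180 (40.1%) were called higher, against 44.5% of all listed genes. For D45/- against +/-, 29 (6.46%) were lower and 20 (4.45%) higher, against 6.97% and 4.22% of all listed genes. For D45/- against -/-, 121 (26.9%) were higher and 133 (29.6%) lower, against 22.2% and 31.1%. These comparisons share samples, and nearest genes of neighbouring peaks are not independent.

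Among the 177 nearest genes within 100 kb, 103 (58.2%, exact 95% interval 50.6 to 65.5) were called lower in -/- than in +/-, against the 43.2% of all listed genes, and 55 (31.1%) were called higher, against 44.5%. Nearest genes of far retained peaks within 100 kb had a like share, with 49 of 89 lower (55.1%, 44.1 to 65.6). These 2 intervals overlap. For D45/- against +/-, 16 of the 177 (9.04%, 5.26 to 14.3) were lower, an interval that holds the 6.97% of all listed genes. For D45/- against -/-, 60 of the 177 (33.9%, 27.0 to 41.4) were higher, against 22.2% of all listed genes, and 37 (20.9%, 15.2 to 27.6) were lower, against 31.1%. Far retained peaks had like shares there, with 31 of 89 higher (34.8%, 25.04 to 45.7) and 18 lower (20.2%, 12.4 to 30.1).

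Several red cell and transporter genes lay within 100 kb of a far wildtype-only peak. Slc2a4 was 31.7 kb from chr11:69793425-69793656 (fold enrichment 4.40) and 42.7 kb from the stronger chr11:69804359-69804676 (10.7, pileup 58). The nearest listed gene of that stronger peak was Dlg4, at 27.4 kb, which goes the other way. By the authors' deposited table Dlg4 had 2.20 FPKM in D45/-, 5.60 in -/- and 1.93 in +/- livers. The authors' deposited table has Slc2a4 at 0.714 FPKM in D45/-, 0.217 in -/- and 10.7 in +/- livers. It calls Slc2a4 lower than in +/- in both D45/- (log2 ratio -3.91) and -/- (-5.63). Slc2a1, another glucose transporter gene, lay 71.8 kb from chr4:118709264-118709524 (fold enrichment 5.74). The authors' deposited table has it at 159 FPKM in D45/-, 111 in -/- and 690 in +/- livers, again called lower in both. Slc22a4, an organic cation transporter gene, lay 91.1 kb from chr11:53705313-53705506 (4.72). Its values in the authors' deposited table were 11.5 FPKM in D45/-, 1.43 in -/- and 24.1 in +/- livers. Of the 10 transporter genes looked up, 9 were listed, 4 of them within 100 kb of a far wildtype-only peak, against 12.4% of all listed genes. All 9 were called lower in -/- than in +/-, against 43.2% of all listed genes, and 7 lower in D45/- than in +/-, against 6.97%. The transporter list was chosen with earlier results of these data known, so these counts describe the list and support nothing further.

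Of 4 listed cell cycle genes 1 lay within 100 kb. This was E2f4, a transcription factor gene, which lay 43.0 kb from chr8:107778373-107778610 (fold enrichment 3.46). The authors' deposited table gives it 198 FPKM in D45/-, 80.7 in -/- and 413 in +/- livers, and calls it lower in both against +/-. Alas2, which encodes the first enzyme of heme synthesis in red cells, lay 68.9 kb from chrX:146912711-146913066 (5.99). Its values in the authors' deposited table were 1420 FPKM in D45/-, 636 in -/- and 1607 in +/- livers. Against +/- it was called lower in -/- and had no call in D45/-, which does not show that D45/- livers had the +/- level. Tspo2, a red cell gene of the translocator protein family, lay 38.3 kb from chr17:48549133-48549412 (3.63), and the authors' deposited table has it at 29.2 FPKM in D45/-, 1.98 in -/- and 54.3 in +/- livers. Treml1, 42.7 kb from the same peak, was called higher in -/-, with 46.3 FPKM against 25.3 in +/- livers by the authors' deposited table. Unc5cl, 44.8 kb from it, was called lower than in +/- in both. Of the 14 red cell markers looked up, 11 were listed and 3 had a far wildtype-only peak within 100 kb. Of the 8 listed red cell transcription factor genes none did, the closest being Ldb1 at 103 kb. Over all listed genes the share was 12.4%, and with counts this small no pattern by gene family is read.

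Of all listed genes, 123 (6.04%) had a far wildtype-only peak within 50 kb, and 3 with large differences between -/- and +/- livers were picked out after their values were seen. Mgst3, a glutathione transferase gene, lay 22.1 kb from chr1:169280055-169280402 (fold enrichment 6.05), and the authors' deposited table gives it 430 FPKM in D45/-, 55.0 in -/- and 829 in +/- livers. Sod2, which encodes the mitochondrial superoxide dismutase, lay 16.3 kb from chr17:13184077-13184412 (7.26), one of the 11 peaks within 1 kb of a MommeD45 peak. Its abundance in the authors' deposited table was 37.0 FPKM in D45/-, 14.9 in -/- and 67.1 in +/- livers. Cd24a, a surface protein gene of immature red cells and other blood cells, lay 25.2 kb from chr10:43329307-43329564 (4.95). For it the authors' deposited table has 893 FPKM in D45/-, 185 in -/- and 873 in +/- livers, so its D45/- value was close to that of +/-.

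Genes higher in -/- livers had such peaks too. Plek, a platelet gene, lay 19.9 kb from chr11:16851070-16851341 (fold enrichment 3.81) and had, by the authors' deposited table, 31.6 FPKM in D45/-, 47.4 in -/- and 17.8 in +/- livers. The neutrophil protease genes Elane and Prtn3 lay 71.7 and 76.7 kb from chr10:79422621-79422941 (4.38). By the authors' deposited table Elane had 30.1 FPKM in D45/-, 76.5 in -/- and 23.7 in +/- livers. The butyrophilin gene Btn1a1 was the nearest listed gene of 17 far wildtype-only peaks, at 18.7 to 295 kb, in the histone intervals described above. By the authors' deposited table Btn1a1 had 36.7 FPKM in D45/-, 28.0 in -/- and 8.08 in +/- livers. Zscan26 was nearest to another 12, at 242 to 589 kb. Of the genes in the authors' table, none of 3 macrophage genes, 3 endothelial genes and 1 hepatocyte gene had a far wildtype-only peak within 100 kb. Within 100 kb lay 2 of 4 listed granulocyte genes and 1 of 4 listed megakaryocyte genes. Over all listed genes the share was 12.4%, and with counts this small no pattern by cell type is read. All 4 granulocyte and all 4 megakaryocyte genes were called higher in -/- than in +/-, against 44.5% of all listed genes. The lists were chosen with earlier results of these data known, and the part of other cell types in these values was not tested.

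**Figure D5:**
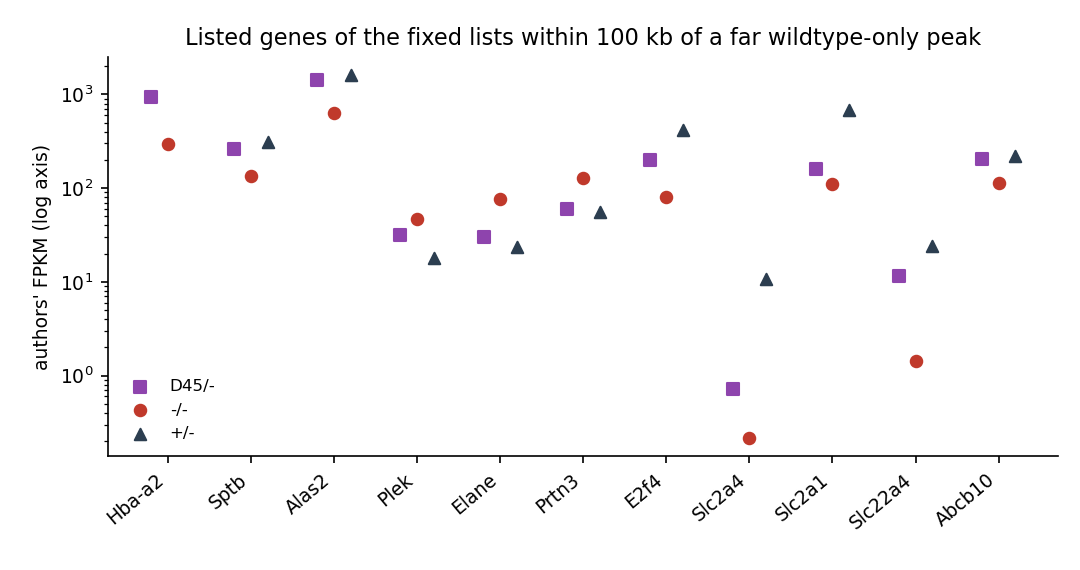
The authors' FPKM (log axis, 1 value per genotype, no replicate spread) in D45/-, -/- and +/- livers for the genes of the lists looked up that lie within 100 kb of a far wildtype-only peak. Slc2a4, Slc2a1, Slc22a4 and E2f4 are highest in +/-, and Plek, Elane and Prtn3 in -/- livers; Hba-a2 has no +/- value in the table.

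A pair of far wildtype-only peaks stood apart from all others. They lay on the mitochondrial genome, at chrM:15405-15680 and chrM:15985-16197, and had the highest pileups of the 605, at 282 and 198 fragments, but the lowest fold enrichments, at 1.98 and 2.11. The local background implied by these values was 142 and 93.4 fragments, against at most 12.7 for the other 603. No gene of that genome is in the expression table and no MommeD45 peak was called there, so the rule takes them without a distance. Without them the median fold enrichment of the class was 4.63.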

How the data were processed

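The authors' deposited peak lists came from bowtie2 mapping of read pairs to mm9, duplicate removal with Picard and peak calling with MACS2, per the deposited description sheet, whose options name no control file. Per the file headers the columns used hold the pileup signal, the fold enrichment ratio over the local background and −log10 of the q-value; all were deposited by the authors and rank peaks within 1 list. The authors' deposited gene table holds cuffdiff comparisons (codes from the series design; TopHat2 2.0.10, per the submitters' processing notes) with abundance, log2 ratio and q-value, and each row is marked significant. FPKM is taken from the column layout of cuffdiff, since the deposited table names no unit. Log2 ratios were turned to the first-named genotype over the second. Single-replicate values were not analysed here, and depth is unknown.

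Distances were taken between edges, and 1 shared base counted as overlap; the code was tested on simulated intervals. The implied local background is (pileup + 1)/fold − 1, which takes MACS2's formula as known. Of 2036 listed genes 2032 matched RefSeq by symbol or synonym, and 586 peaks had a listed gene on both sides in the same order there. Shares carry exact (Clopper-Pearson) 95% intervals, medians exact order-statistic intervals; both cover counting error only. No test was made, as genotypes had 1 library each. Named were the 10 strongest peaks, the 5 of highest pileup, those at the limits of the rule, their nearest listed genes, and up to 3 genes per marker list by distance. Hba-x, Tspo2, Treml1, Unc5cl, Dlg4, Mgst3, Sod2, Cd24a, the retained neighbours and the runs were named after their values were seen. The peaks, lists and comparisons were chosen with earlier results of these data known. Peak sequences were not analysed here. Python 3.11.15, numpy 2.4.6, pandas 2.3.3 and scipy 1.17.1 were used.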

Additional observations from a re-analysis of the deposited data

How the results depend on the processing

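Alternatives are grouped by how close they came to the main value, so each range below holds by that grouping, and the values outside it follow. The number of far wildtype-only peaks, 605, was between 491 and 795 under 12 alternatives. These were other definitions of overlap, distances of 5, 20 and 50 kb, each summit as its own region, other sets of listed genes, a stricter q-value, and no mitochondrial peaks (added after seeing the data). The number was 397 at more than 100 kb, which by construction takes fewer peaks. It was 45 with both lists held to a fold enrichment of at least 10, where MommeD45 peaks under that limit no longer count as overlap. The median fold enrichment lay between 4.59 and 4.67 under 9 alternatives and was 5.01 with both lists at −log10 q of at least 5, which removes weak peaks by construction. The share of nearest listed genes called lower in -/- than in +/- lay between 46.5% and 47.2% under 3 alternatives. Leaving out the mitochondrial peaks, 1 of these, cannot move it, since those peaks have no nearest listed gene. The share was 55.9% within 50 kb and 58.2% within 100 kb, and the cause was not tested. In the histone intervals 14 of the 28 peaks were left at −log10 q of at least 5 and 1 at a fold enrichment of at least 10 in both lists. Searches for CACCC-type motifs were not run, since no mm9 sequence was used here. No paired analysis was possible because no single-replicate value was used, and leaving out replicates could not be run for the same reason. Weak peaks near the calling threshold limit what the absence of a MommeD45 peak can show.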

Other observations

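MommeD45 livers also had peaks with no wildtype counterpart. There were 123, and 86 of them (69.9%, exact 95% interval 61.0 to 77.9) lay more than 10 kb from every listed gene, a share close to the 69.1% of all MommeD45 peaks. Their fold enrichment had a median of 4.37 in the MommeD45 list and ran between 2.61 and 11.7, with 1 at 10 or more. The strongest, chr5:107134291-107134559, had a pileup of 65 and lay 401 kb from Tgfbr3, which encodes a coreceptor for TGF-beta. A far wildtype-only peak stood close by, chr5:107138673-107138890 (fold enrichment 5.70 in wildtype), 397 kb from Tgfbr3. The next strongest of the 123, chr1:46132789-46132972, had a fold enrichment of 7.97 and lay 573 kb from the collagen gene Col5a2.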
